A study of Sus scrofa with 12 samples.

Results

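The results below describe internal exons of expressed protein-coding genes in cultured pig aortic valve interstitial cells, and how strongly each exon was used relative to its own gene. An internal exon was taken as an exon row of the exon table that was neither the first nor the last of its gene by start coordinate and that was at least 30 bases long, in a protein-coding gene with 5 or more exon rows and a gene RPKM (reads per kilobase of exon, scaled to library size) of at least 5 in all 12 libraries. This rule gave 68439 internal exons of 189618 exon rows, in 6203 of 22861 genes. The genes were thus chosen by their RPKM, which is given only as a description. Relative use, the exon RPKM divided by the gene RPKM, was not part of the choice. The gene just inside the expression threshold, CH242-196P17.1, had a lowest RPKM of 5.0025, and the gene just outside it, ABCB10, had 4.9993. At the length threshold, 147 internal exons had exactly 30 bases and were kept, and 94 of 29 bases were not.

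Most vertebrate internal exons are short and are joined by the spliceosome between a 3′ and a 5′ splice site. A cassette exon is included in some transcripts and skipped in others, which changes the protein without changing the gene's promoter. In fibroblast-like cells, alternative exons of matrix and cytoskeletal genes, such as those of fibronectin, tropomyosin and caldesmon, are classic examples of exons whose inclusion differs between cell states. An exon whose length is a multiple of 3 can be included or skipped without shifting the reading frame.

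The cells were grown on glass, the calcification stimulus named in the labels, in DMEM, and were collected at successive calcification stages. The 4 groups of 3 libraries were Stage 1, Stage 2, Stage 3+DMSO and Stage 3+KPT, and the series states that its replicates were biological. DMSO, the solvent, and KPT were added once Stage 3 was reached. The labels give KPT by these letters only. Culture lasted 5, 8 or 12 days by stage, and the labels do not say in words which length belongs to which stage. RNA was taken with a Qiagen kit and 500 ng per sample went into a poly(A)-selecting stranded library kit. Stage 3 with DMSO differs from the earlier stages by the stage and by the solvent, which cannot be told apart. No genotype, age or donor is given for the pigs, and the p-values below measure the spread between these cultures.

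Library totals recovered from the RPKM steps ran from 13188023 to 24724019 reads. Reads summed over exon rows came to 25534607 to 47644819, close to 2 times the total in every library, so a read can count for more than 1 row, and reads quoted for exons are row counts, not shares of the total. The interstitial markers were high in every library, with VIM between 4378 and 11573 RPKM, COL1A2 between 3826 and 9963, COL3A1 between 2931 and 6946 and S100A4 between 191 and 386. ACTA2, the smooth muscle actin of activated valve cells, ran from 1999.8 to 18957 RPKM. VWF, PTPRC, MYH7 and KRT18 reached at most 0.0482 RPKM, EPCAM reached 0.234 and TNNT2 and NKX2-5 had no reads. PECAM1 (4.92 to 12.0 RPKM), CD68 (1.10 to 5.58) and CD14 (5.38 to 12.9) were low but present, and DES (0.405 to 152) and CNN1 (51.7 to 957) varied widely. In these bulk libraries a change in exon choice within cells and a change in the mixture of cells cannot be told apart.

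The internal exons had a median length of 120 bases (30 to 6834), and 39.4% had a length that was a multiple of 3. Their genes held a median of 9 such exons and at most 137. Of the 68439, 66404 had a mean RPKM of at least 1 over all 12 libraries and were tested, 2035 were not tested, and 1304 had no read in any library. A further 7441 overlapped another exon row of the same gene, so that the same reads can count for both, and 687 overlapped an exon of another gene.

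The typical internal exon was somewhat denser in reads than its whole gene. The median ratio of exon to gene RPKM was 1.19 (log2 0.25), the middle 90% of exons lay between 0.525 and 2.37, and the outermost percentiles were 0.171 and 3.59. Relative use climbed along the gene. Position here is the order of a gene's exon rows from the 5′ end, not distance in bases. In 10 equal bins of this order, the median log2 use was -0.08 in bin 1, 0.25 in bin 5 and 0.35 in bin 9, with 0.30 in bin 10. Use varied little with length below 150 bases: the median log2 use was 0.19 for exons of 30 to under 50 bases, 0.30 for 50 to under 75, 0.28 for 75 to under 100 and 0.02 for exons of 500 bases or more. The shortest class had the widest spread, with quartiles of -0.48 and 0.69.

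**Figure D1:**
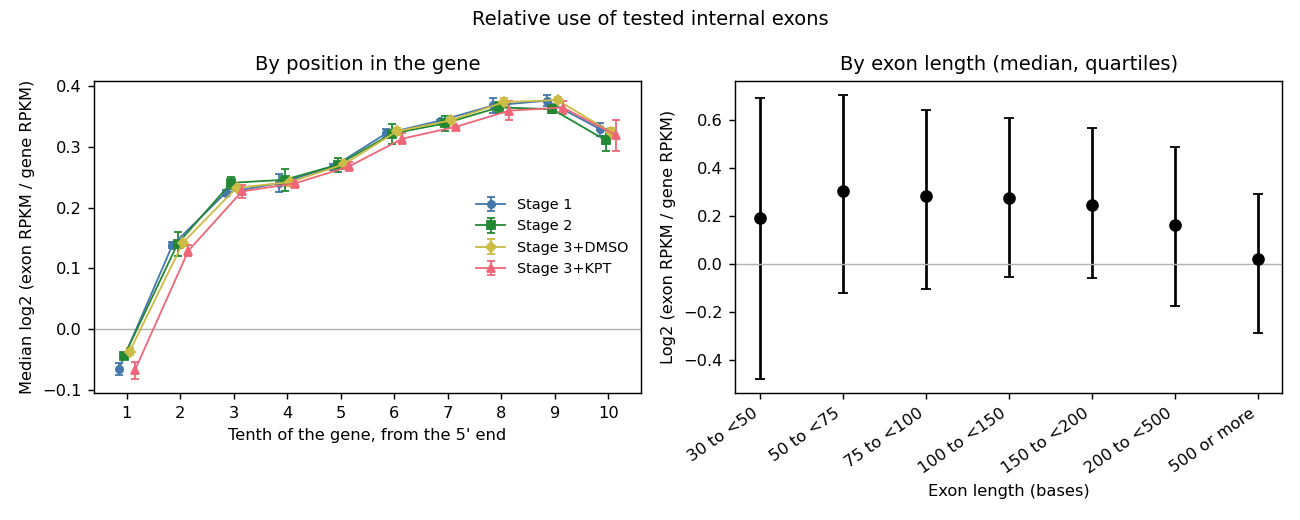
Relative use (log2 of exon RPKM over gene RPKM) of tested internal exons against position in the gene (left) and against exon length in bases (right, median and quartiles). Position is in 10 bins of exon row order from the 5′ end, and points are group means of the library medians with SD over 3 libraries. All 4 groups climb from about -0.08 to -0.03 in bin 1 to above 0.36 in bin 9, and the shortest exons spread most.

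Exons used little were a small class. An exon RPKM under the gene RPKM divided by 4 was found in all 12 libraries for 2397 exons (3.5%), in some libraries for 3518 (5.14%) and in none for 62524 (91.4%). Lengths that were multiples of 3 made up 42.8% of the exons that were always low and 39.2% of those that never were. Per library, 4.60 to 5.82% of internal exons were low.

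These overall features differed little between groups. The slope of log2 use on exon row order, from the 5′ to the 3′ end of a gene, was 0.417 ± 0.0042 (SD, n = 3) in Stage 1, 0.383 ± 0.040 in Stage 2, 0.396 ± 0.0072 in Stage 3+DMSO and 0.397 ± 0.035 in Stage 3+KPT. The Stage 1 and Stage 3+DMSO slopes did not overlap, but a two-sided exact permutation test of 3 against 3 libraries cannot go below p = 0.1, which is the value it gave (adjusted p = 0.4 over 12 such comparisons). Exons under 100 bases exceeded longer ones by 0.0569 in median log2 use in Stage 1, 0.0539 in Stage 2, 0.0650 in Stage 3+DMSO and 0.0778 in Stage 3+KPT, and both Stage 3+DMSO against Stage 1 (0.0081) and KPT against DMSO (0.0128) did not overlap and gave the smallest exact permutation p of 0.1 (adjusted p = 0.4 each). The share of exons used little did not pass in any comparison, with exact permutation p-values of 0.2 for KPT and at least 0.7 for the stages.

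Single exons were tested with limma on the log2 ratio of exon to gene RPKM, with Benjamini-Hochberg adjustment over all 117160 tested exon rows and a threshold of 0.05. Between Stage 1 and Stage 2, 40 internal exons in 22 genes passed, 13 higher and 27 lower in Stage 2. This was 0.0602% of the tested internal exons, against 0.0418% of all tested exon rows (0.0154% higher and 0.0265% lower). Between Stage 2 and Stage 3+DMSO, 35 passed, 19 higher and 16 lower (0.0527%, against 0.0444%, of which 0.0265% higher and 0.0179% lower). Between Stage 1 and Stage 3+DMSO, 96 in 35 genes passed, 60 higher and 36 lower (0.145%, against 0.116%, of which 0.0726% higher and 0.0435% lower). KPT against DMSO at Stage 3 gave the most, 186 exons in 117 genes, 78 higher and 108 lower (0.280%, against 0.316%, of which 0.114% higher and 0.201% lower). This balance turned under some settings: 90 higher and 80 lower with the trend on position removed, 22 and 16 relative to the median internal exon of the gene, 355 and 187 with diffSplice (which compares an exon with the other exons of its gene), 344 and 139 with diffSplice on voom weights and 9 and 7 in a fit of the 2 groups alone. Other settings kept more lower than higher, among them 94 and 131 at a pseudocount of 0.1, 170 and 209 with library weights and 617 and 802 without a filter. Merged where rows of a gene overlap, the called exons came to 39, 31, 91 and 180 separate regions. All 4 shares lay near the background of all exon rows. The 3 stage comparisons share libraries with each other, and the KPT comparison shares the Stage 3+DMSO libraries with those that include them. At an unadjusted p under 0.05, 7.84%, 8.03%, 6.93% and 12.9% of the tested internal exons passed in the same order.

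First and last exon rows of the same genes passed in 0.0245%, 0.0326%, 0.187% and 0.562% of 12267 tested, in the same order. Groups of 3 and 3 libraries did not overlap for 11.03%, 11.8%, 12.6% and 19.1% of internal exons, against 11.1%, 12%, 12.9% and 19.4% of all tested exon rows. The counts rested on all 12 libraries: leaving out any 1 library gave 10 to 17, 4 to 19, 48 to 69 and 63 to 213 exons in the same order, with the rise to 213 when KPT replicate 2 was left out. Depth set the precision: the within-group SD of log2 use fell from 0.561 for exons under 20 reads per library to 0.0521 for those with 1000 or more, and 0.212% and 0.663% of these exons passed in any comparison.

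In all, 285 internal exons in 153 genes passed in at least 1 comparison: 227 in 1, 44 in 2, 14 in 3 and none in all 4. Among them 47.4% had a length that was a multiple of 3, against 39.3% of the tested exons. Exons with a log2 use under -2 made up 19.3% of the 285 and 1.66% of the tested exons, and the median log2 use was -0.34 against 0.25. These shares are descriptions of the exons that passed and carry no test.

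Called exons lay often in genes that overlap another gene. An exon row overlapping an exon of another gene was present in the genes of 23 of the 40 exons called between Stage 1 and Stage 2 (57.5%), 12 of 35 between Stage 2 and Stage 3+DMSO (34.3%), 60 of 96 between Stage 1 and Stage 3+DMSO (62.5%) and 80 of 186 under KPT (43.0%). The same held for 10.5% of all tested internal exons. The deposited counting is not stated to use strand, although the library kit marks it, so reads of overlapping genes cannot be told apart here. For that reason single exons in genes without such an overlap come first, and gene-wide changes beside overlapping neighbours follow.

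Among 25 matrix and adhesion genes chosen for known alternative exons, 21 had tested internal exons, 717 in all. Of these, 6 passed lower in Stage 2 than in Stage 1 and none higher, 6 passed higher in Stage 3+DMSO than in Stage 2 and none lower, 5 passed higher and 2 lower from Stage 1 to Stage 3+DMSO, and 4 passed higher and 4 lower under KPT. Some of these are overlapping rows of the same bases in CD44 and VCAN: merged into separate regions they come to 5 lower, 4 higher, 3 higher and 2 lower, and 4 higher and 4 lower. LTBP3, which holds 1 of the 3 higher regions from Stage 1 to Stage 3+DMSO, overlaps another gene there. The called shares, by row, of 0.837%, 0.837%, 0.976% and 1.12% stood against 0.0602%, 0.0527%, 0.145% and 0.280% of all tested internal exons. This list and those below were chosen with earlier results of these data known, so such shares are descriptions and carry no test. The list's median log2 differences of 0.0043, 0.0037, 0.0037 and -0.037 stood beside -0.0025, 0.0067, 0.0039 and -0.019 for all tested internal exons. At an unadjusted limma p under 0.05, 13.4%, 10.2%, 9.48% and 26.4% of the list passed. The same held for 7.84%, 8.03%, 6.93% and 12.9% of all tested internal exons. A diffSplice test on log2 exon RPKM called 11, 12, 10 and 17 exons of the list, and diffSplice with voom weights called 8, 5, 6 and 26.

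Fibronectin (FN1), the adhesive glycoprotein of the pericellular matrix, had 44 tested internal exons, and a pair of them stood low against their neighbours. Exon 25 of 46 (273 bases, chr15:130389048-130389320, minus strand) had a relative use of 0.358, 0.370 and 0.371 in the Stage 1 libraries, 0.237, 0.235 and 0.230 in Stage 2, 0.192, 0.199 and 0.170 in Stage 3+DMSO and 0.262, 0.246 and 0.248 in Stage 3+KPT. None of the 4 groups overlapped in this exon. Its use fell by 0.65 on the log2 scale from Stage 1 to Stage 2 (SE 0.05, adjusted p = 0.0051) and by 0.97 from Stage 1 to Stage 3+DMSO (adjusted p = 0.00014), and it was 0.43 higher with KPT than with DMSO (adjusted p = 0.012). The step from Stage 2 to Stage 3+DMSO, -0.32, did not pass (adjusted p = 0.10).

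Exon 33 of 46 of FN1 (270 bases, chr15:130377678-130377947, minus strand) had 0.437, 0.428 and 0.422 in Stage 1, 0.309, 0.289 and 0.292 in Stage 2, 0.282, 0.281 and 0.274 in Stage 3+DMSO and 0.344, 0.350 and 0.348 in Stage 3+KPT. The order of the groups was that of exon 25. Use fell by 0.53 to Stage 2 (SE 0.03, adjusted p = 0.00036) and by 0.62 to Stage 3+DMSO (adjusted p = 4.3e-05), and rose by 0.31 with KPT (adjusted p = 0.0018). Both lengths are multiples of 3. Fibronectin is known for cassette exons that encode the extra domains EDB and, further downstream, EDA. The files name no domains, so neither exon was assigned to one. The calls of exon 25 between the stages held in 18 of 19 alternative settings and that with KPT in 16 of 19, those of exon 33 to Stage 2 in 18 of 19 and to Stage 3+DMSO in 19 of 19. Gene RPKM of FN1 was 3836 in Stage 1, 5384 in Stage 2, 4516 in Stage 3+DMSO and 4167 in Stage 3+KPT, an order unlike that of these exons.

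COL6A3, the alpha 3 chain of the beaded-filament collagen VI, whose exons for N-terminal von Willebrand factor A modules are known to be alternatively spliced, moved the other way late in culture. Exon 4 of 45 (603 bases, chr15:151514436-151515038, minus strand) had 0.284, 0.230 and 0.263 in Stage 1, 0.153, 0.155 and 0.160 in Stage 2, 0.326, 0.302 and 0.321 in Stage 3+DMSO and 0.619, 0.532 and 0.557 in Stage 3+KPT. Every group was separate from the others, with the lowest use in Stage 2 and the highest with KPT. Use fell by 0.73 to Stage 2 (SE 0.08, adjusted p = 0.019), rose by 1.02 from Stage 2 to Stage 3+DMSO (adjusted p = 0.0043) and was 0.84 higher with KPT (adjusted p = 0.0030). The last 2 calls each held in 17 of 19 settings, and the first in 12 of 19.

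The neighbouring exon 3 of COL6A3 (621 bases, chr15:151520963-151521583) was rarer, with 0.104, 0.103 and 0.0979 in Stage 1, 0.0669, 0.0709 and 0.0669 in Stage 2, 0.154, 0.139 and 0.148 in Stage 3+DMSO and 0.242, 0.196 and 0.214 in Stage 3+KPT. It followed the same order as exon 4. The rise of 1.10 from Stage 2 to Stage 3+DMSO passed (SE 0.08, adjusted p = 0.0022) and held in 17 of 19 settings, while the rise of 0.53 from Stage 1 (adjusted p = 0.045) held in 7 of 19 and that of 0.56 with KPT (adjusted p = 0.022) in 10 of 19. The change from Stage 1 to Stage 2, -0.57, missed the threshold (adjusted p = 0.054).

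**Figure D2:**
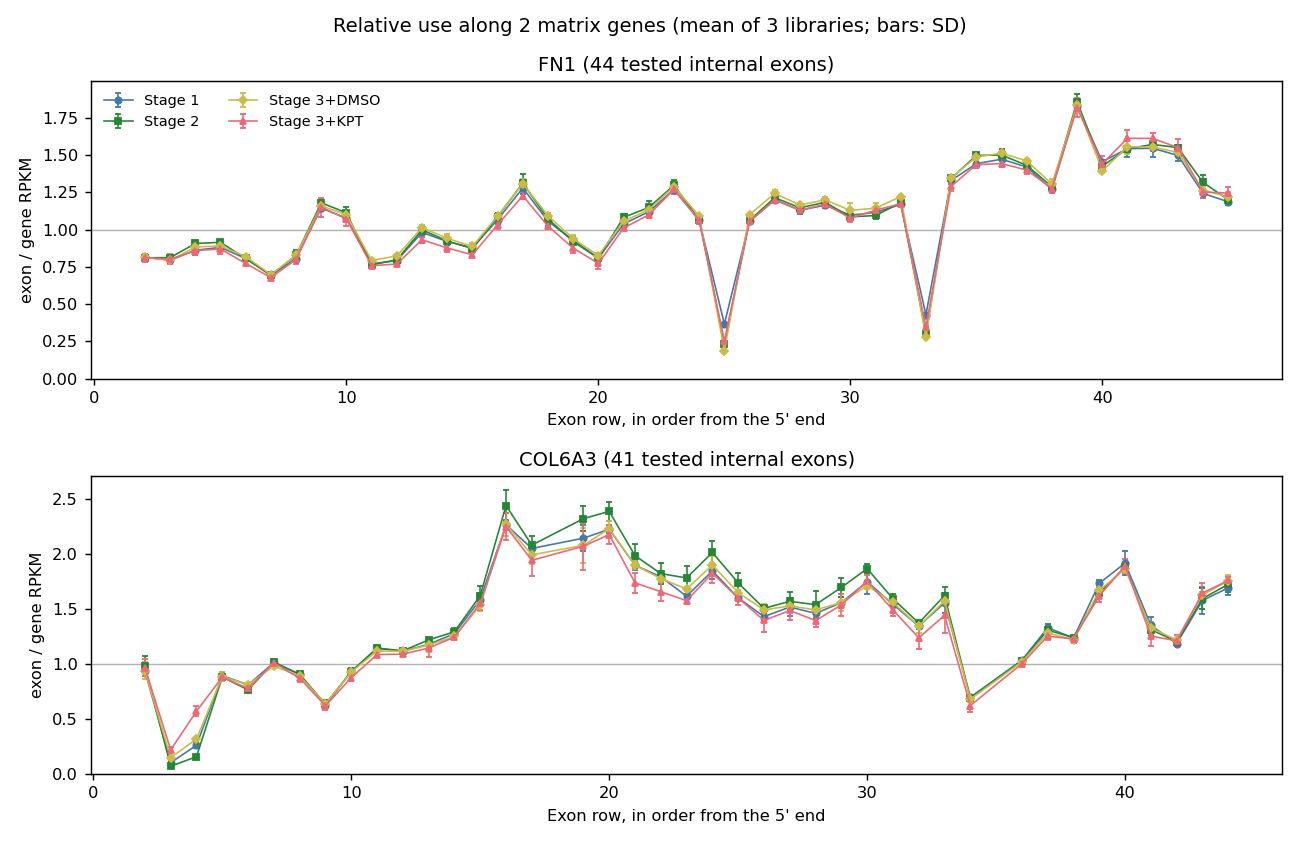
Relative use (exon RPKM over gene RPKM) of every tested internal exon along FN1 and COL6A3 in order from the 5′ end, as group means of 3 libraries with SD. In FN1 exons 25 and 33 dip below their neighbours, least in Stage 1, and in COL6A3 exons 3 and 4 dip near the 5′ end, least with KPT.

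Periostin (POSTN), a matricellular protein of valve and bone tissue with an alternatively spliced C-terminal region, had a low exon 21 of 23 (84 bases, chr11:13206495-13206578, minus strand). Its use was 0.0857, 0.116 and 0.0736 in Stage 1, 0.0608, 0.0631 and 0.0562 in Stage 2, 0.158, 0.145 and 0.120 in Stage 3+DMSO and 0.0467, 0.0504 and 0.0432 in Stage 3+KPT. Stage 3+DMSO was the highest group and KPT the lowest, without overlap. Use rose by 1.20 on the log2 scale from Stage 2 to Stage 3+DMSO (SE 0.16, adjusted p = 0.049, kept in 7 of 19 settings) and fell by 1.58 with KPT (adjusted p = 0.0041, kept in 17 of 19). The gene itself went from 159.5 RPKM in Stage 1 to 356 in Stage 2, 1068 in Stage 3+DMSO and 2872 with KPT, so the exon was used least where the gene was highest.

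Biglycan (BGN), a small leucine-rich proteoglycan, had a nearly unused exon 3 of 17 (126 bases, chrX:141852473-141852598, plus strand). Relative use was 0.0171, 0.0155 and 0.0147 in Stage 1, 0.00488, 0.00533 and 0.00426 in Stage 2, 0.00693, 0.00509 and 0.00535 in Stage 3+DMSO and 0.00391, 0.00415 and 0.00331 in Stage 3+KPT. All Stage 1 libraries lay above all others. It fell by 1.70 to Stage 2 (SE 0.14, adjusted p = 0.0056) and by 1.44 from Stage 1 to Stage 3+DMSO (adjusted p = 0.0037), each kept in 17 of 19 settings. The exon still drew 441 reads in Stage 1 and 221 in Stage 2, each a sum of 3 libraries. The gene itself stood at 4171 RPKM in Stage 1 and 6746 in Stage 2, and the source of these reads was not tested.

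COL14A1, a collagen that binds to fibrils, had a 36-base exon 45 of 51 (chr4:19750527-19750562, minus strand) with 1.28, 1.68 and 1.25 in Stage 1, 0.967, 1.01 and 0.975 in Stage 2, 1.60, 1.69 and 1.80 in Stage 3+DMSO and 0.979, 0.981 and 0.906 with KPT. Stage 2 and KPT lay low and did not overlap with Stage 3+DMSO. The rise of 0.78 from Stage 2 to Stage 3+DMSO passed (SE 0.10, adjusted p = 0.043, kept in 7 of 19 settings), and so did the fall of 0.83 with KPT (adjusted p = 0.013). Smaller falls with KPT passed for the fibrillar collagens COL11A1 (exon 49 of 65, 108 bases, -0.36, adjusted p = 0.018, kept in 8 of 19 settings) and COL5A1 (exon 18 of 69, 54 bases, -0.18, adjusted p = 0.012, kept in 10 of 19).

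Versican (VCAN), the large chondroitin sulfate proteoglycan of the valve's middle layer, and the hyaluronan receptor CD44 were looked at outside the naming rule, after their values were seen, because their called exons overlap other rows of the same gene. VCAN rows 13, 14 and 15 of 36 cover nearly the same 2940 bases (chr2:93830099-93833038, plus strand) and are 1 observation. Row 13 had 0.0734, 0.0625 and 0.0485 in Stage 1, 0.0503, 0.0516 and 0.0468 in Stage 2, 0.183, 0.149 and 0.136 in Stage 3+DMSO and 0.0992, 0.0861 and 0.0933 with KPT. Its use rose by 1.59 from Stage 2 to Stage 3+DMSO (SE 0.16, adjusted p = 0.017) and by 1.28 from Stage 1 (adjusted p = 0.019). A long VCAN exon is known to carry glycosaminoglycan attachment sites, though the files do not say which. CD44 row 22 of 47 (114 bases, chr2:28191026-28191139, minus strand) had 0.0976, 0.114 and 0.0926 in Stage 1 and 0.0360, 0.0289 and 0.0222 in Stage 2, and fell by 1.72 (SE 0.18, adjusted p = 0.019). It rested on 155 reads in Stage 1 and 33 in Stage 2, each a sum of 3 libraries.

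**Figure D3:**
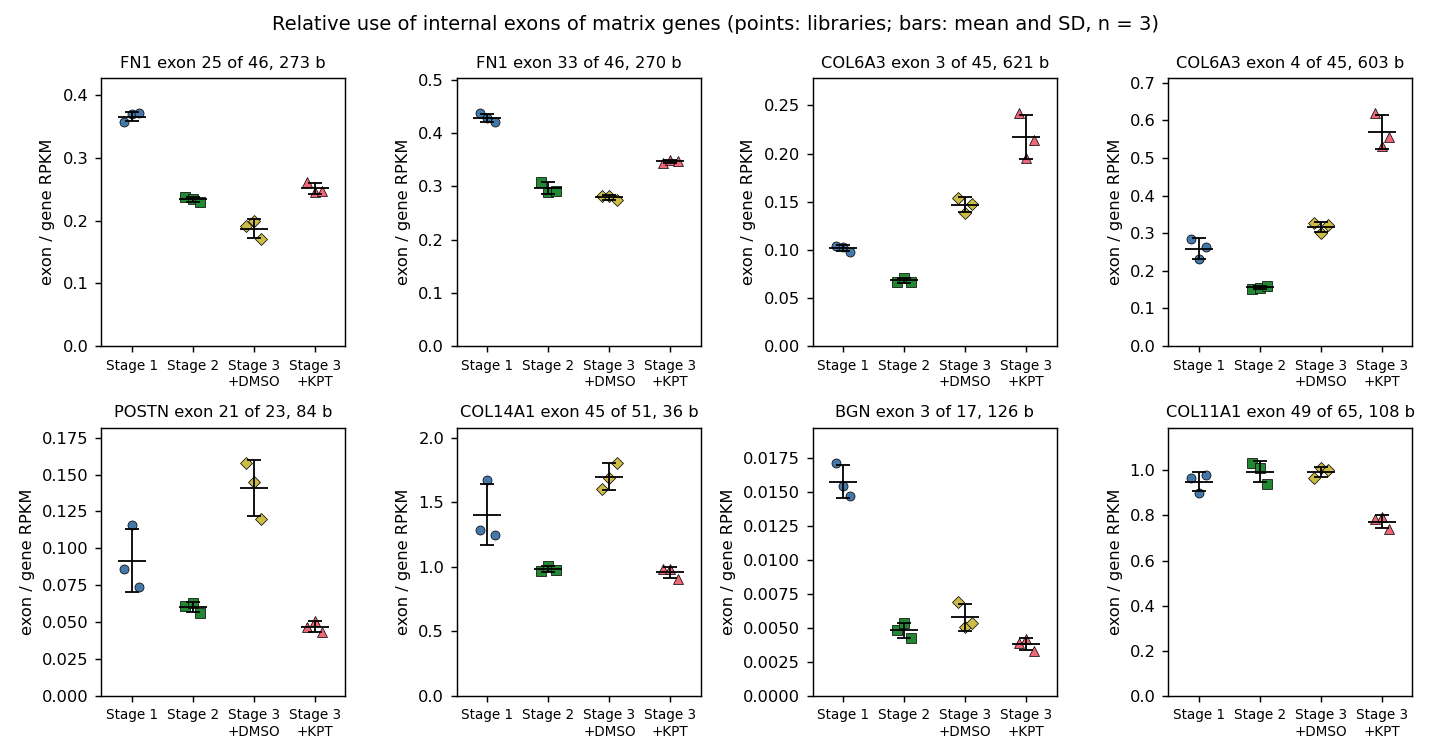
Relative use (exon RPKM over gene RPKM, axes from 0) of 8 internal exons of matrix genes, with 1 point per library in the 4 groups and a bar at each mean. FN1 exons 25 and 33 are highest in Stage 1, COL6A3 exons 3 and 4 are highest with KPT, POSTN exon 21 is highest in Stage 3+DMSO, and BGN exon 3 is above 0.014 only in Stage 1.

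Of 41 genes of the actin cytoskeleton and its anchors, 32 had tested internal exons, 768 in all. In the 4 comparisons, in the order used above, 0, 1, 1 and 2 exons passed higher and 1, 0, 1 and 4 lower. The called shares of 0.130%, 0.130%, 0.260% and 0.781% stood against 0.0602%, 0.0527%, 0.145% and 0.280% of all tested internal exons, and in the first 2 comparisons they are 1 exon each. The median log2 differences were -0.0062, -0.0015, -0.00085 and -0.027, beside the medians of all tested internal exons given for the matrix list. Markers of contractile cells also differed between the groups. In Stage 1, Stage 2, Stage 3+DMSO and Stage 3+KPT, mean RPKM was 18443, 12677, 8571 and 2278 for ACTA2. It was 880, 844, 384 and 62.3 for CNN1 and 45.5, 126, 6.17 and 0.454 for DES. The part of these markers in the exon results was not tested.

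TPM1, tropomyosin 1, which winds along actin filaments and whose second exon is known to come in mutually exclusive smooth muscle and non-muscle forms, had an exon 2 of 10 (126 bases, chr1:120238754-120238879, minus strand) with small but narrow differences. Its use was 0.789, 0.805 and 0.804 in Stage 1, 0.661, 0.680 and 0.702 in Stage 2, 0.831, 0.821 and 0.850 in Stage 3+DMSO and 0.671, 0.698 and 0.694 with KPT. Stage 2 and KPT formed a low pair and the other groups a high pair. Use fell by 0.23 to Stage 2 (SE 0.02, adjusted p = 0.019), rose by 0.29 to Stage 3+DMSO (adjusted p = 0.0060) and fell by 0.28 with KPT (adjusted p = 0.0023). These calls held in 10, 14 and 15 of 19 settings and were lost with diffSplice. TPM1 gene RPKM was 6399, 5689, 3072 and 589 in the 4 groups. The counterpart in TPM2 (exon 2 of 9) did not pass, with a mean use of 0.967 in Stage 1.

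CALD1, caldesmon, an actin-binding protein whose smooth muscle form carries an extra spacer region, had a little-used exon 6 of 17 (324 bases, chr18:15109347-15109670, minus strand). Relative use was 0.0372, 0.0350 and 0.0302 in Stage 1, 0.0297, 0.0313 and 0.0317 in Stage 2, 0.0153, 0.0203 and 0.0136 in Stage 3+DMSO and 0.0549, 0.0522 and 0.0472 with KPT. Stage 3+DMSO was lowest and KPT highest, and neither overlapped another group. The rise of 1.63 with KPT (SE 0.14, adjusted p = 0.0019) held in 17 of 19 settings, and the fall of 1.05 from Stage 1 to Stage 3+DMSO (adjusted p = 0.028) in 11 of 19. The neighbouring exon 7, the tested CALD1 exon with the lowest use, rose by 1.52 with KPT. This missed the threshold (limma adjusted p = 0.053) but passed in 9 of 19 alternative settings. Gene RPKM of CALD1 stayed between 770 and 916.2.

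Vinculin (VCL), which links actin to adhesion sites, has a known muscle isoform, metavinculin, with 1 added exon. The least used VCL exon, 20 of 23 (204 bases, chr14:82930388-82930591, plus strand), had 0.0786, 0.0842 and 0.0699 in Stage 1, 0.0721, 0.0492 and 0.0630 in Stage 2, 0.0438, 0.0354 and 0.0406 in Stage 3+DMSO and 0.0459, 0.0393 and 0.0583 with KPT. Stage 1 did not overlap with Stage 3+DMSO, but the difference of -0.93 missed the threshold (adjusted p = 0.14), and it passed without the filter on exon RPKM and with diffSplice. Exon 18 of 23 of VCL fell by 0.32 with KPT (adjusted p = 0.047), a call kept in 7 of 19 settings. The files do not name isoforms.

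FLNC, filamin C, an actin cross-linker of muscle, had a heavily read exon 2 of 48 (249 bases, chr18:20860282-20860530, plus strand) at 3.18, 3.05 and 3.23 in Stage 1, 3.11, 3.55 and 3.45 in Stage 2, 4.29, 4.32 and 4.61 in Stage 3+DMSO and 5.50, 5.46 and 5.69 with KPT. It rose by 0.47 from Stage 1 to Stage 3+DMSO (SE 0.05, adjusted p = 0.013, kept in 11 of 19 settings), while the gene was at 70.0, 48.7, 32.2 and 15.5 RPKM in the 4 groups. FHL1, a LIM-domain protein of muscle, had an exon 7 of 30 (205 bases, chrX:127284022-127284226, plus strand) at 0.00471, 0.0153 and 0.0126 with DMSO and 0.0696, 0.0875 and 0.0956 with KPT. Its rise of 2.88 (SE 0.46, adjusted p = 0.041, kept in 8 of 19 settings) started from 38 reads in all over the 3 DMSO libraries. An FNBP1 exon, 4 of 18, fell by 0.94 with KPT (adjusted p = 0.043, kept in 8 of 19), in a gene for a membrane-bending adaptor of actin assembly.

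Outside the chosen lists, a fall under KPT that few settings removed was in ARHGEF2, a microtubule-bound exchange factor that activates the small GTPase RhoA. Exon 2 of 23 (94 bases, chr4:102792336-102792429, plus strand) had 0.396, 0.358 and 0.275 in Stage 1, 0.489, 0.488 and 0.631 in Stage 2, 0.574, 0.536 and 0.494 in Stage 3+DMSO and 0.147, 0.122 and 0.148 with KPT. The KPT libraries lay below all 9 others. The fall of 1.89 against DMSO (SE 0.15, adjusted p = 0.0016) held in 18 of 19 settings. The length of this exon is not a multiple of 3, and gene RPKM went from 201 to 77.2.

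Of 51 genes for signalling and membrane trafficking, 38 had tested internal exons, 662 in all. With limma, 0 passed from Stage 1 to Stage 2 and 0 from Stage 2 to Stage 3+DMSO (57 and 56 at an unadjusted p under 0.05, 8 and 7 by diffSplice on log2 exon RPKM and 2 and 0 by diffSplice with voom weights). From Stage 1 to Stage 3+DMSO 1 passed higher, and with KPT 1 passed higher and 4 lower. These shares, 0.151% and 0.755%, stood against 0.145% and 0.280% of all tested internal exons, and the background of the first 2 comparisons, 0.0602% and 0.0527%, is below 1 exon in this list. The median log2 difference with KPT was -0.024, against -0.019 for all tested internal exons.

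APP, the amyloid precursor protein, had an exon 14 of 17 (54 bases, chr13:199313931-199313984, minus strand) at 1.12, 1.20 and 1.10 in Stage 1, 0.855, 0.911 and 0.873 in Stage 2, 1.04, 1.00 and 0.940 in Stage 3+DMSO and 0.743, 0.762 and 0.642 with KPT. It fell by 0.48 with KPT (SE 0.07, adjusted p = 0.022, kept in 13 of 19 settings). PICALM, a clathrin assembly protein, changed at 2 exons in opposite directions. Exon 14 of 22 (150 bases, chr9:22141007-22141156, minus strand) had 0.215, 0.286 and 0.218 in Stage 1, 0.172, 0.197 and 0.233 in Stage 2, 0.168, 0.126 and 0.217 with DMSO and 0.483, 0.529 and 0.404 with KPT. The KPT libraries were above all others, and the rise of 1.49 passed (SE 0.20, adjusted p = 0.022, kept in 11 of 19 settings). Exon 11 of 22 of the same gene (90 bases) was looked at outside the naming rule, so its call was not followed over the settings. Its use went from 1.05, 1.06 and 1.13 with DMSO to 0.761, 0.830 and 0.750 with KPT, a fall of 0.47 (adjusted p = 0.024).

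XPO1, exportin 1, the carrier of nuclear export, had an exon 14 of 21 (184 bases, chr3:84173325-84173508, plus strand) at 2.36, 2.16 and 1.98 in Stage 1, 2.21, 2.11 and 1.77 in Stage 2, 2.41, 2.61 and 2.38 with DMSO and 1.68, 1.60 and 1.37 with KPT. It fell by 0.66 with KPT (SE 0.11, adjusted p = 0.042, kept in 8 of 19 settings), while gene RPKM went from 23.7 with DMSO to 117 with KPT. An exon of TJP1, a tight junction scaffold, fell by 0.54 (exon 8 of 12, adjusted p = 0.046, kept in 8 of 19). OSBPL9, an oxysterol-binding protein, had an exon 3 of 24 (79 bases, chr6:148208550-148208628, minus strand) at 0.221, 0.188 and 0.184 in Stage 1, 0.399, 0.332 and 0.413 in Stage 2, 0.407, 0.516 and 0.378 in Stage 3+DMSO and 0.568, 0.475 and 0.520 with KPT. Stage 1 stood below every other group, and the rise of 1.10 to Stage 3+DMSO passed (SE 0.14, adjusted p = 0.019, kept in 11 of 19 settings).

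**Figure D4:**
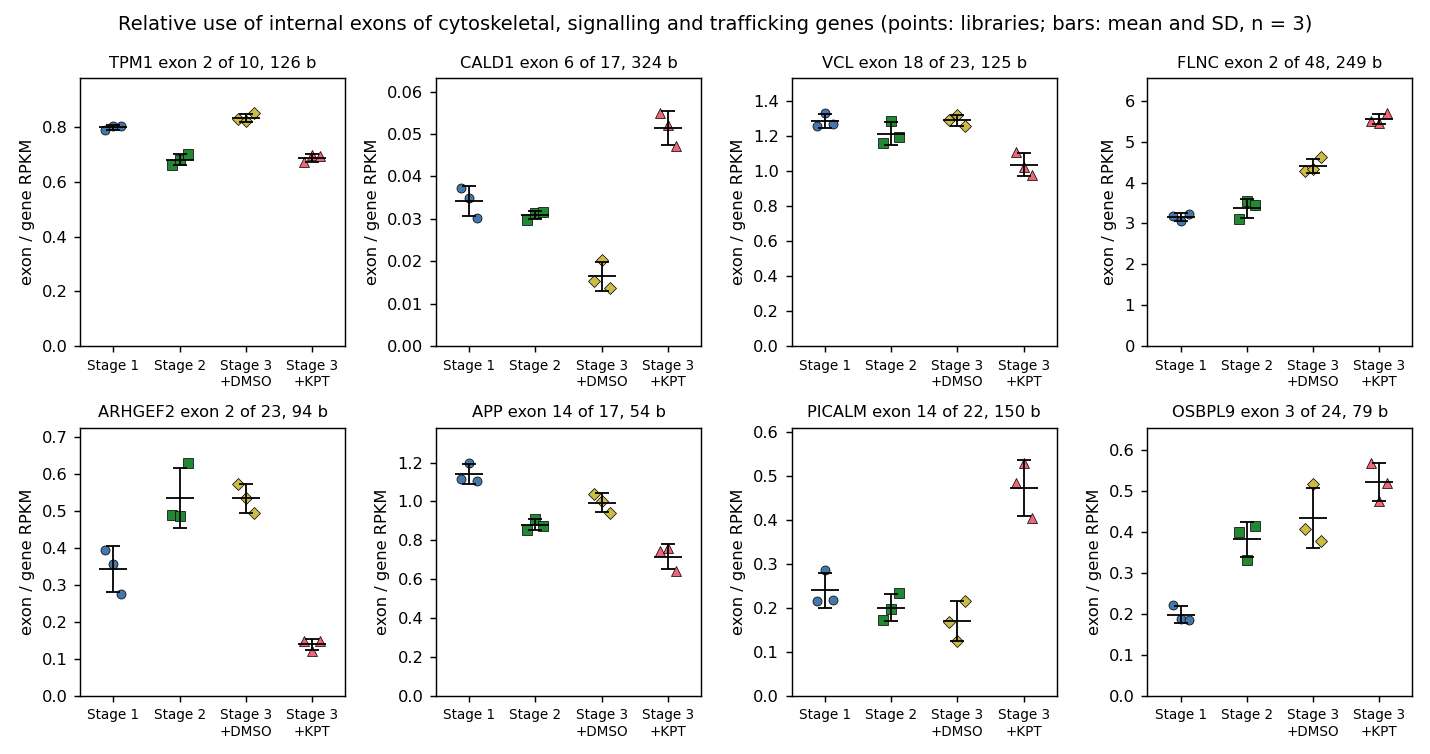
Relative use (exon RPKM over gene RPKM, axes from 0) of 8 internal exons of cytoskeletal, signalling and trafficking genes, with 1 point per library and a bar at each mean. CALD1 exon 6 and PICALM exon 14 are highest with KPT, ARHGEF2 exon 2 is lowest with KPT at 0.122 to 0.148, and OSBPL9 exon 3 is lowest in Stage 1.

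Splicing regulators, many of which control their own level through poison exons, formed the list with the fewest tested exons. Of 52 such genes, 37 had 408 tested internal exons, and limma called 0 in each comparison, with 33, 29, 26 and 61 at an unadjusted p under 0.05 (8.09%, 7.11%, 6.37% and 15.0%, against 7.84%, 8.03%, 6.93% and 12.9% of all tested internal exons). The called shares of all tested internal exons, 0.0602% to 0.280%, come to few or no exons in a list of this size, so the 0 is not a result about these genes. A diffSplice test on log2 exon RPKM called 2, 3, 0 and 0 of them, and diffSplice with voom weights on recovered reads called 0, 1, 2 and 1. The medians were -0.0061, -0.0055, -0.0057 and -0.018. TRA2B had no row in the exon table. CLK1, a kinase of SR proteins, had its lowest exon (11 of 22, 95 bases) at 0.523, 0.681 and 0.738 in Stage 1, 0.650, 0.873 and 0.835 in Stage 2, 0.834, 0.267 and 0.678 with DMSO and 1.12, 0.750 and 1.52 with KPT, and the KPT and DMSO libraries overlapped. PKM, pyruvate kinase, a textbook case of mutually exclusive exons, had its lowest exon (9 of 11, 167 bases) at a mean of 0.644 in Stage 1, 0.574 in Stage 2, 0.617 with DMSO and 0.564 with KPT, and no comparison passed.

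Further exons passed in genes of other roles. EWSR1, an RNA-binding protein, had an exon 5 of 17 (187 bases) that rose by 0.32 from Stage 2 to Stage 3+DMSO (adjusted p = 0.041, kept in 6 of 19 settings) and fell by 0.25 with KPT (adjusted p = 0.038). CWC22, a spliceosome factor, had an exon 14 of 19 that rose by 1.47 with KPT (adjusted p = 0.018, kept in 8 of 19), from 18 reads in all over the 3 DMSO libraries. AGPS, an enzyme of ether lipid synthesis, had an exon 6 of 21 (85 bases, chr15:92657534-92657618, plus strand) at 0.418, 0.433 and 0.426 with DMSO and 1.10, 1.28 and 1.24 with KPT. This rise of 1.46 passed (adjusted p = 0.016, kept in 13 of 19) at a gene RPKM of 26.4 and 26.9. FAM204A exon 2 of 10 (228 bases) rose by 2.31 with KPT (adjusted p = 0.023, kept in 10 of 19), from 0.0571, 0.0779 and 0.0447 to 0.333, 0.351 and 0.307. DNMT1, the maintenance DNA methyltransferase, had an exon 14 of 40 (49 bases) that fell by 1.42 (adjusted p = 0.018, kept in 11 of 19). Only 11 reads in all were left over the 3 KPT libraries. TTC14 exon 10 of 12 rose by 1.12 from Stage 1 to Stage 2 (adjusted p = 0.032, kept in 7 of 19). An ACTA1 exon fell by 4.10 with KPT (adjusted p = 0.013, kept in 11 of 19), but its reads may be shared with ACTA2, a near-identical paralog, and it is uncertain.

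In 14 genes at least 3 neighbouring rows of internal exons passed in 1 direction. In 2 of them, VCAN and CCSER2, these rows overlap each other and come to fewer than 3 separate regions. The other 12 genes held 4, 0, 35 and 33 of the called exons in the 4 comparisons. The last exon row of 11 of these 12 genes (91.7%) overlapped another gene, as it did in 6.54% of genes with tested internal exons. Whether reads of the neighbour set these ratios was not tested. The neighbours' gene RPKM is given beside each gene, but the same reads can count for both, so it is not an independent level.

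GYS1, muscle glycogen synthase, was the longest run. All 14 of its internal exons were lower in Stage 3+DMSO than in Stage 1. Here and below, the median internal exon is the median over a gene's tested internal exons in each library, not 1 fixed exon. In GYS1 its use was 0.448, 0.449 and 0.432 in Stage 1, 0.232, 0.205 and 0.169 in Stage 2, 0.0819, 0.0851 and 0.0856 in Stage 3+DMSO and 0.0608, 0.0586 and 0.0607 with KPT. Measured as RPKM, this median went from 95.2 ± 5.70 (SD, n = 3) in Stage 1 to 61.1 ± 7.98, 47.7 ± 1.98 and 61.0 ± 4.48, whereas gene RPKM went from 215 to 303, 566 and 1017. The last row of GYS1 (5146 bases) overlaps FTL, the ferritin light chain on the opposite strand, which stood at 1329, 2127, 4208 and 7609 RPKM, and that row itself read 269, 405, 780 and 1412 RPKM. Set against the median internal exon of the gene in place of the gene RPKM, exon 10 of GYS1 went from a difference of -2.56 to -0.17.

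VMP1, a membrane protein of autophagy, had 7 of 10 internal exons higher in Stage 3+DMSO than in Stage 1. Its exon 11, next to the last row, stood apart with a mean use of 2.95, 3.12, 3.64 and 2.74 in the 4 groups. Its median internal exon was used at 0.391, 0.389 and 0.369 in Stage 1, 0.730, 0.679 and 0.776 in Stage 2, 1.08, 1.51 and 1.27 in Stage 3+DMSO and 0.940, 0.950 and 0.724 with KPT. The median over its internal exons was 46.1, 56.7, 72.8 and 67.6 RPKM while gene RPKM was 120.3, 77.9, 57.4 and 77.8. Its last row overlaps the row of ssc-mir-21 on the same strand, which had 21.1, 15.1, 4.83 and 6.42 RPKM. RNF167, a membrane-bound ubiquitin ligase, had 7 of 8 internal exons higher in Stage 3+DMSO than in Stage 1, with a median use of 0.122, 0.129 and 0.130 against 0.316, 0.377 and 0.336. Its last row overlaps PFN1, profilin, which stood at 1744, 1386, 1294 and 846 RPKM.

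With KPT, XPC, a damage sensor of nucleotide excision repair, had 12 of 14 internal exons higher. The median exon went from 0.524, 0.494 and 0.442 with DMSO to 1.29, 1.29 and 1.28 with KPT, and from 34.5 to 119 RPKM, while gene RPKM went from 70.8 to 92.9. Its last row overlaps TMEM43, which was at 135 RPKM with DMSO and 87.4 with KPT. TMOD1, which caps the pointed ends of actin filaments, had 6 of 7 internal exons higher with KPT, from 0.265, 0.213 and 0.261 to 1.32, 1.48 and 1.45 in the median exon and from 5.19 to 70.0 RPKM. The last rows of TMOD1 and TSTD2 overlap each other, and TSTD2, with 3 neighbouring exons lower in relative use under KPT, had a median exon RPKM of 33.6 with DMSO and 29.3 with KPT. Gene RPKM went from 21.1 to 49.4 in TMOD1 and from 20.8 to 32.9 in TSTD2. All 8 internal exons of CDC20, the activator of the anaphase-promoting complex, overlap exons of ELOVL1. They were lower with KPT, with a median use of 1.54, 1.00 and 1.12 with DMSO against 0, 0 and 0.00698. Their median went from 56.3 to 0.0452 RPKM. ELOVL1 stood at 44.1 RPKM with DMSO and 18.6 with KPT, and the CDC20 gene at 46.3 and 20.3. The same reads can count for both genes.

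The other run genes had fewer called neighbours. DDX39A, an RNA helicase, had 4 neighbouring exons lower in Stage 2 than in Stage 1. Its median internal exon went from 113 to 44.1 RPKM and the gene from 92.8 to 69.7, while ADGRE5, which overlaps its last row, stood at 112 and 115 RPKM. ABI3BP, a matrix protein, had called exons that were higher in Stage 3+DMSO than in Stage 1, with 9.10 ± 1.24 against 83.9 ± 31.6 RPKM (SD, n = 3) in the median internal exon, and TFG, which overlaps its last row, stood at 260 and 252 RPKM. With KPT, 3 neighbouring exons of ACSS2, an acetyl-CoA synthetase, were lower, its median exon had 22.7 RPKM against 36.6 with DMSO, and the overlapping GSS had 44.5 against 21.3. LIN37, a subunit of a cell cycle repressor complex, had 3 neighbouring exons higher with KPT, and 8 of its rows overlap the small heat shock protein gene HSPB6. HSPB6 had 125 RPKM with KPT and 262 with DMSO, and the LIN37 gene had 171 and 357. The same reads can count for both genes.

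PODN, podocan, a small leucine-rich proteoglycan, was a run gene with no overlapping neighbour. Its median internal exon was used at 0.0609, 0.118 and 0.0750 in Stage 1, 0.492, 0.620 and 0.573 in Stage 2, 0.786, 0.917 and 0.911 in Stage 3+DMSO and 0.307, 0.323 and 0.271 with KPT. The groups did not overlap in this median, which as RPKM was 1.11, 18.2, 41.7 and 6.71 where the gene had 13.1, 32.5, 48.0 and 22.3. In relative use, PODN exons 2 and 3 went the other way from the exons further downstream: mean use was 13.2 and 12.0 in Stage 1, 10.1 and 7.65 in Stage 2, 7.57 and 6.08 in Stage 3+DMSO and 12.1 and 9.50 with KPT. Gene RPKM differed between the groups, so a lower ratio here need not be a lower exon RPKM. The 5′ exons thus held many times the gene's read density in every group, and neither direction of relative use holds for the whole of PODN.

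**Figure D5:**
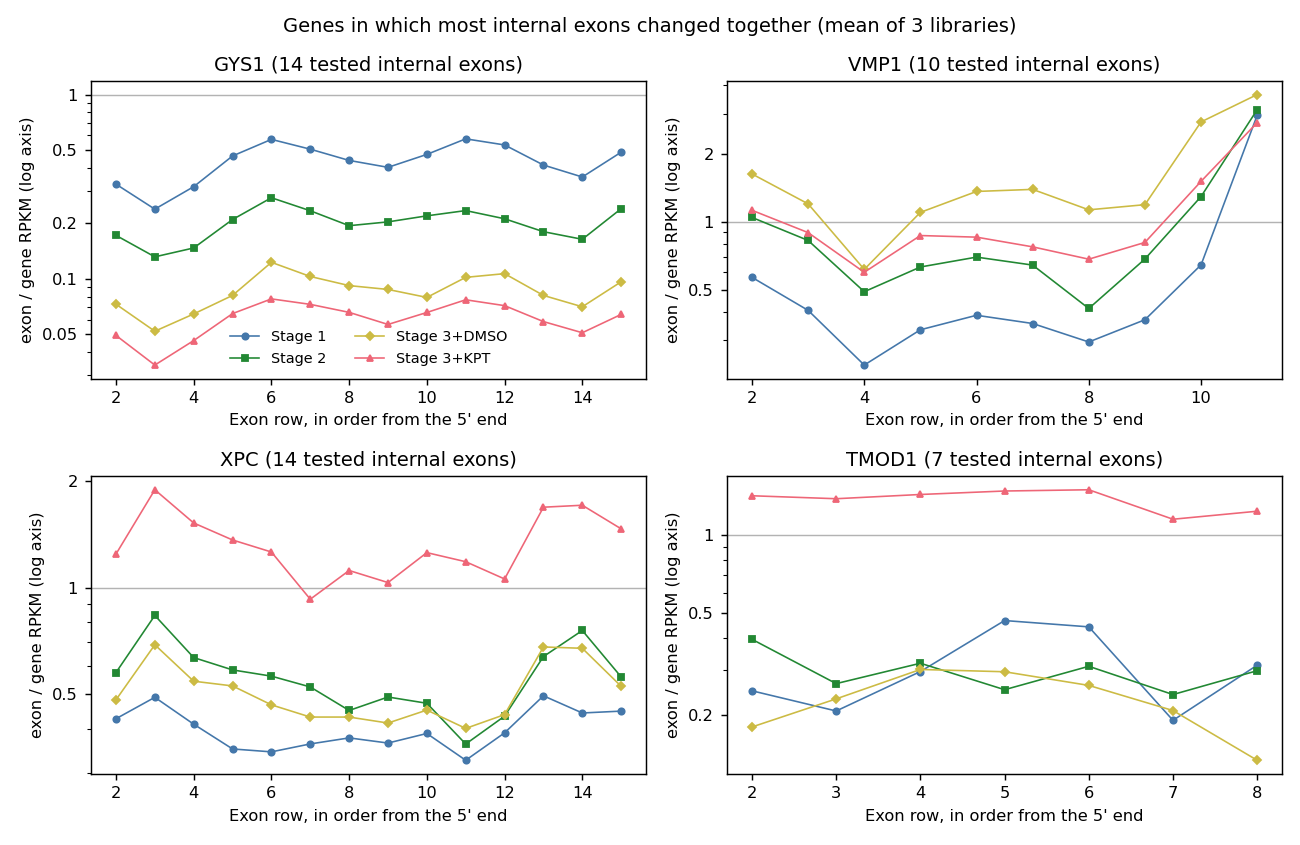
Relative use (exon RPKM over gene RPKM, log axis) of tested internal exons in order from the 5′ end of GYS1, VMP1, XPC and TMOD1, as group means of 3 libraries. GYS1 falls from Stage 1 to KPT at every exon shown, VMP1 is lowest in Stage 1 at exons 2 to 10 but not at exon 11, and XPC and TMOD1 are highest with KPT at every exon shown.

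Among the 57 genes named by the rule set out under the processing, 22 had an exon row overlapping another gene. Without the called exons of overlapping genes, 17 internal exons in 10 genes were left between Stage 1 and Stage 2 (5 higher, 12 lower), 23 in 17 genes between Stage 2 and Stage 3+DMSO (14 higher, 9 lower), 36 in 20 genes between Stage 1 and Stage 3+DMSO (23 higher, 13 lower) and 106 in 88 genes under KPT (41 higher, 65 lower). Measured against the median internal exon of each gene, which removes shifts of a whole gene, 20, 13, 27 and 38 exons passed, split 4 higher and 16 lower, 9 and 4, 9 and 18, and 22 and 16. Among these were exons of FN1, COL6A3, BGN, TPM1, CALD1, POSTN and ARHGEF2 described above, while the calls of GYS1, VMP1 and XPC were lost.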

How the data were processed

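The 12 pig valve cell cultures gave strand-marking mRNA libraries, and TopHat2 2.1.0 is the tool named per the submitters' processing notes. The counter, build and gene models were not given in the sources used here. Coordinates are those of the deposited exon table. The authors deposited RPKM per exon and per gene. Multiplying these values back by length and library total gave whole reads for 100% of values within 0.0001. Exon order follows start coordinates and the strand.

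Relative use was log2((exon RPKM + 0.5)/(gene RPKM + 0.5)), and ratios quoted for single libraries carry no pseudocount. limma 3.58.1 (R 4.3.3), with an expression trend, was fitted to all 12 libraries and 4 groups at once, on every exon with a mean RPKM of at least 1 in a gene with a mean of at least 1, with Benjamini-Hochberg adjustment over the whole table (threshold 0.05). Fold changes on this scale understate those of low exons. The code was tested on simulated data. Library-wide measures used two-sided exact permutation tests.

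Exons were named by rule: per comparison the 10 largest rises and 10 largest falls (5 and 5 from Stage 1 to Stage 3+DMSO) among called exons whose groups do not overlap, with a mean RPKM of at least 5 in a group and no overlap with another row of the gene, up to 3 per list and direction, the lowest exon of each gene of a fixed panel, and runs of at least 3 called neighbours. The text describes a selection of these. The exons and lists were chosen with earlier results of these data known. Alternatives covered the pseudocount, the filter, centring on the median internal exon, the position trend, pairwise fits, a replicate block, library weights, diffSplice, voom on recovered reads and left-out libraries. Exon sequences were not used here.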

Additional observations from a re-analysis of the deposited data

How the results depend on the processing

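Counts of called internal exons are given in the order Stage 1 to Stage 2, Stage 2 to Stage 3+DMSO, Stage 1 to Stage 3+DMSO and KPT against DMSO, beside 40, 35, 96 and 186. They stayed within 1.5 times with a pseudocount of 0.1 or 1, a minimum mean RPKM of 5 and the trend on position removed, which split the KPT calls into 90 higher and 80 lower. Without a filter there were 302, 384, 470 and 1419. Relative to the median internal exon there were 20, 13, 27 and 38, of which 12, 9, 14 and 29 were among the original calls. Fits of the 2 groups alone gave 1, 0, 23 and 16. Library weights gave 379 for KPT. diffSplice gave 301, 304, 276 and 542 (KPT 355 higher, 187 lower) and, with voom weights, 483 for KPT (344 higher, 139 lower). A variance trend on recovered reads, chosen after seeing the data, gave 312 for KPT. Leaving out libraries gave 1 to 17, 0 to 19, 7 to 69 and 13 to 213, the lowest without replicate 1 of every group. The lowest counts without a single library were 10, 4, 48 and 63. Apart from the effect of testing fewer or more exons or libraries, the cause was not tested.

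In relative use, same-numbered libraries did not deviate together (correlations -0.068 to 0.044 over 18 pairs, against -0.090 to 0.090 for other pairs). Relative use divides out the level of the gene, so this check cannot show whether same-numbered cultures were paired. A fit with the replicate block called 16, 9, 57 and 96.

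Centring on the median internal exon sets the short-exon difference to 0 in all 4 comparisons by construction and says nothing about it. The low-use share from Stage 1 to Stage 3+DMSO turned to -0.00755 points under that centring, and the KPT slope to -0.014 with only non-overlapping exons. With libraries left out, slopes ranged from -0.053 to -0.014, -0.00682 to 0.033, -0.024 to -0.017 and -0.017 to 0.018. The low-use share ranged from -0.11 to 0.39, -0.34 to 0.15, -0.039 to 0.16 and -0.33 to -0.13, and the short-exon difference from -0.00720 to 0.00363, 0.0045 to 0.015, 0.0061 to 0.011 and 0.010 to 0.016. Of 2799 settings of named exons, 2052 kept the call or its absence, 708 lost and 36 gained one, and 3 reversed: LIN37 exon 2 of 9 (Stage 1 to Stage 3+DMSO, 0.0944 relative to the median exon) and CNTNAP1 exon 10 of 12 with KPT (0.0661 relative to the median exon, 0.0288 with diffSplice). Depth limited exons under 20 reads per library, whose within-group SD of 0.561 exceeds many called differences.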
